A study of Mus musculus with 9 samples.

Results

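The genes described here are the mouse globins and the alpha globin chaperone, in bone marrow megakaryocyte-erythroid progenitors (MEPs). The 8 members were chosen by symbol: the adult alpha globins Hba-a1 and Hba-a2, the adult beta globins Hbb-bs and Hbb-bt, the embryonic globins Hba-x, Hbb-y and Hbb-bh1, and Ahsp. A row of the count table, which lists 35275 gene identifiers, was found for 7 of the 8. The symbol Ahsp matched no identifier in the gene name table used, so the chaperone is not analysed here.

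Hemoglobin is built from alpha-type and beta-type chains, each of which holds a heme group. The genes of each type lie in a cluster, with embryonic members that are used in the first red cells of the yolk sac and adult members that take over in fetal liver and bone marrow. In bone marrow, globin transcripts accumulate in erythroblasts, after the progenitor stage that was sorted here, under the control of factors such as GATA1 and KLF1. AHSP binds free alpha chains and keeps them from precipitating before they pair with beta chains.

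MEPs were sorted from the bone marrow of wild-type C57Bl/6 mice as lineage-negative, c-kit-positive, CD34-negative cells with low FcγRII/III. The mice were age- and sex-matched according to the study's methods, and the labels give neither age nor sex. HS3A8 is a single-chain antibody fragment (scFv) that binds a modified form of heparan sulfate on the cell surface. In the study's description, MEPs were split at the middle of HS3A8 binding. Cells above it formed the HS3A8-high group and cells below it the HS3A8-low group, so both fractions together covered the MEPs. In the MPB49 control, MEPs were mock-sorted with an scFv for which no epitope is known, so this group stands for unfractionated MEPs. There were 3 libraries per group, 9 in all, and each was made from 25000 sorted cells. Ter-119, a surface protein of maturing red cells, was in the lineage cocktail, so Ter-119-positive cells were meant to be removed before the sort.

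Library totals ran from 11781637 to 15850037 counts. Where a gene had no count, up to 3 counts were still possible, or 0.189 to 0.255 CPM (counts scaled by the library total). Without molecular identifiers on the reads, such limits speak of counting error alone. CPM values here are scaled by the TMM factors of edgeR over all 9 libraries, except where a group mean belongs to a test of 2 groups. The sorted cells held transcripts of MEP genes in every library. Klf1, an erythroid transcription factor, lay between 516 and 1040 CPM, and Kit, the receptor used in the sort, between 380 and 807 CPM. The study's methods call replicates biological and a plot legend speaks of individual mice, while the labels tie no library to an animal.

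The alpha cluster lies on chromosome 11 and the beta cluster on chromosome 7 (GRCm38, GENCODE annotation). Hba-a1 (ENSMUSG00000069919) spans chr11:32283511-32284465 and Hba-a2 (ENSMUSG00000069917) spans chr11:32296489-32297298, both on the plus strand. Hbb-bt (ENSMUSG00000073940) spans chr7:103812524-103813996 and Hbb-bs (ENSMUSG00000052305) spans chr7:103826534-103828096, both on the minus strand. The embryonic members lie in the same clusters, Hba-x at chr11:32276400-32278116, Hbb-bh1 at chr7:103841637-103843164 and Hbb-y at chr7:103851749-103853216.

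Within each adult pair the coding sequences are nearly the same, which limits what a count for a single copy can say. Hba-a1 and Hba-a2 each have 426 coding bases, stop codon left out, and are identical at 425 of them (99.8%). Hbb-bs and Hbb-bt each have 441 coding bases and are identical at 440 (99.8%). The only difference in each pair is in the third exon, and the stretch of 49 bases around it is shown, from the GENCODE transcripts, with the base that differs in capitals. Positions are counted from 1 at the A of the start codon, and the differences are C381T from Hba-a1 to Hba-a2 and C417T from Hbb-bs to Hbb-bt. The stretches lie at chr11:32284319-32284367, chr11:32297136-32297184, chr7:103826668-103826716 and chr7:103812659-103812707, in the order shown.
Hba-a1: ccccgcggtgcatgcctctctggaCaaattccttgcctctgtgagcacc
Hba-a2: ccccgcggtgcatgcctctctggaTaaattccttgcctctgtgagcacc
Hbb-bs: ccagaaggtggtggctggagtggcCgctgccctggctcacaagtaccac
Hbb-bt: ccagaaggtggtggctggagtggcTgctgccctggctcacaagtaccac

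A read that falls on an identical stretch fits both copies of a pair. Of the windows of 100 bases in the longest coding transcript, 56.5% in Hba-a1 and 74.5% in Hba-a2 were also found in the other copy. The shares were 62.6% in Hbb-bs and 54.8% in Hbb-bt. No window of that length in the 3 embryonic members was found in another gene. Adult globins shared no such window with any gene other than their own copy. How reads that fit both copies were counted is not given in the sources used here, so the split within a pair is uncertain, and sums over each pair are given beside the single genes. Whether such reads were counted at all is not given either. If they were left out, the sums, shares and levels of the adult globins would miss them too.

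Globin promoters are known for TATA, CCAAT and CACCC elements. RefSeq promoter sequences (GRCm38.p6) were matched for 6 of the 8 members. They were searched on both strands over the 120 bases before the RefSeq start for the CACCC core CCACCC, its 8-letter form CCACACCC, the CCAAT box CCAAT, the GATA motif GATAA and TATA boxes written ATATAA or CATAAA. Hba-a2 and Hbb-bs are shown as 1 promoter of each type, on the coding strand and without bases that GENCODE places in an exon of the gene, with matches in capitals. The stretches are chr11:32296372-32296488 on the plus strand and chr7:103827929-103828011 on the minus strand.
Hba-a2 promoter: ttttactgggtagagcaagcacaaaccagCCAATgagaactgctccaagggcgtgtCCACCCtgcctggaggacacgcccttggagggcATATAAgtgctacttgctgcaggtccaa
Hbb-bs promoter: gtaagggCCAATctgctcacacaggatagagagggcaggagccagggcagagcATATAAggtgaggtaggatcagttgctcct

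The first TATA spelling was found in 5 of the 6 promoters, 23 to 31 bases before the start, and the remaining promoter, that of Hbb-y, held the other spelling at 29 to 24 bases. Among 32851 mouse promoters of the same length, 4.47% held the first and 5.16% the other. A CCAAT box was found in the promoters of Hba-a1, Hba-a2, Hbb-bs, Hbb-bt and Hbb-y, against 21.3% of all promoters. The CACCC core was found in those of Hba-a1, Hba-a2, Hba-x and Hbb-y (16.4% of all), and its 8-letter form in that of Hbb-bs alone (1.84% of all), at 93 to 86 bases, outside the stretch shown. Neither form was found in that of Hbb-bt. A GATA motif was found only in Hba-x (10.5% of all). Over the 120 bases, Hba-a1 and Hba-a2 were identical at 95.1% of aligned positions and Hbb-bs and Hbb-bt at 72.7%. These matches describe letters in the window and not bound sites.

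Adult globin transcripts were detected in all 9 libraries, at a small share of the RNA. The 4 adult genes together took 0.00738% to 0.0237% of all counts, from 1130 to 3440 counts in a library. In bulk samples, a different number of cells of a type and a different amount of RNA per cell cannot be told apart. Per kilobase of exon, Hba-a1 had a mean level of 104 CPM per kb over the 9 libraries, with a range from 68.9 to 168. This mean lay above that of 94.6% of the 11292 genes that averaged 1 CPM or more.

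The other adult genes were lower on the same scale. Mean levels were 23.96 CPM per kb for Hbb-bs, 19.4 for Hbb-bt and 18.2 for Hba-a2, above 75.6%, 71.2% and 69.7% of genes. Ranges of these 3 genes overlapped, so their order was not separated by the spread over libraries. The range of Hba-a1 began above the highest level of Hba-a2 (41.8) and of Hbb-bt (44.1) and just above that of Hbb-bs (68.0). These levels were divided by all exon bases, while the copies differ in sequence of their own. Windows of 100 bases found in no other gene numbered 261 in Hba-a1, 116 in Hba-a2, 198 in Hbb-bs and 273 in Hbb-bt. If shared reads were left out, the order and the percentiles would depend on this, which was not tested. For scale, Klf1 had a mean of 537 CPM per kb, and Car1, an early erythroid carbonic anhydrase, one of 3970, a gene that was named after its values were seen.

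Embryonic globins were at or near the detection limit. Hba-x, the zeta-type chain, had 6 counts in all, spread over 4 of the 9 libraries. Hbb-y, the epsilon-type chain, had 4 counts, all in HS3A8-high replicate 3, and Hbb-bh1 had 1 count, in HS3A8-low replicate 1. None of the 3 genes passed the filter on low counts in any comparison, so 4 of the 8 members were tested. With levels around the limit set by 3 counts, no difference between groups was detectable for them at this depth.

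Hba-a1 was the adult gene with the most counts in each library. It had 62.2, 64.6 and 136 CPM in HS3A8-high replicates 1 to 3, 81.6, 81.8 and 132 CPM in HS3A8-low, and 70.1, 55.9 and 76.6 CPM in the MPB49 control. Replicate 3 of both sorted fractions was high, and the values of HS3A8-high overlapped with those of both other groups. All 3 HS3A8-low libraries were above all 3 control libraries.

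Hba-a2 followed the other alpha gene at a lower level. It had 7.37, 7.63 and 27.9 CPM in HS3A8-high, 9.90, 9.40 and 23.4 CPM in HS3A8-low, and 8.83, 6.41 and 8.39 CPM in the control. Again replicate 3 of both fractions stood out, and again HS3A8-low did not overlap with the control. Over the 9 libraries the log2 levels of the 2 alpha genes had a Pearson r of 0.981, a description over libraries that share the uncertain split of reads.

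Hbb-bs varied most among the 4 genes. It had 5.02, 5.88 and 45.6 CPM in HS3A8-high, 10.02, 7.92 and 52.2 CPM in HS3A8-low, and 27.0, 5.70 and 6.18 CPM in the control. Replicate 3 of both fractions and replicate 1 of the control were high, and all groups overlapped.

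Hbb-bt showed the same 3 high libraries in another order. It had 6.55, 8.09 and 17.7 CPM in HS3A8-high, 8.37, 10.6 and 25.03 CPM in HS3A8-low, and 31.0, 4.55 and 10.7 CPM in the control, so that control replicate 1 was the highest of the 9. The 2 beta genes had an r of 0.863 over the 9 libraries. Hba-a1 had an r of 0.843 with Hbb-bs and of 0.649 with Hbb-bt.

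**Figure D1:**
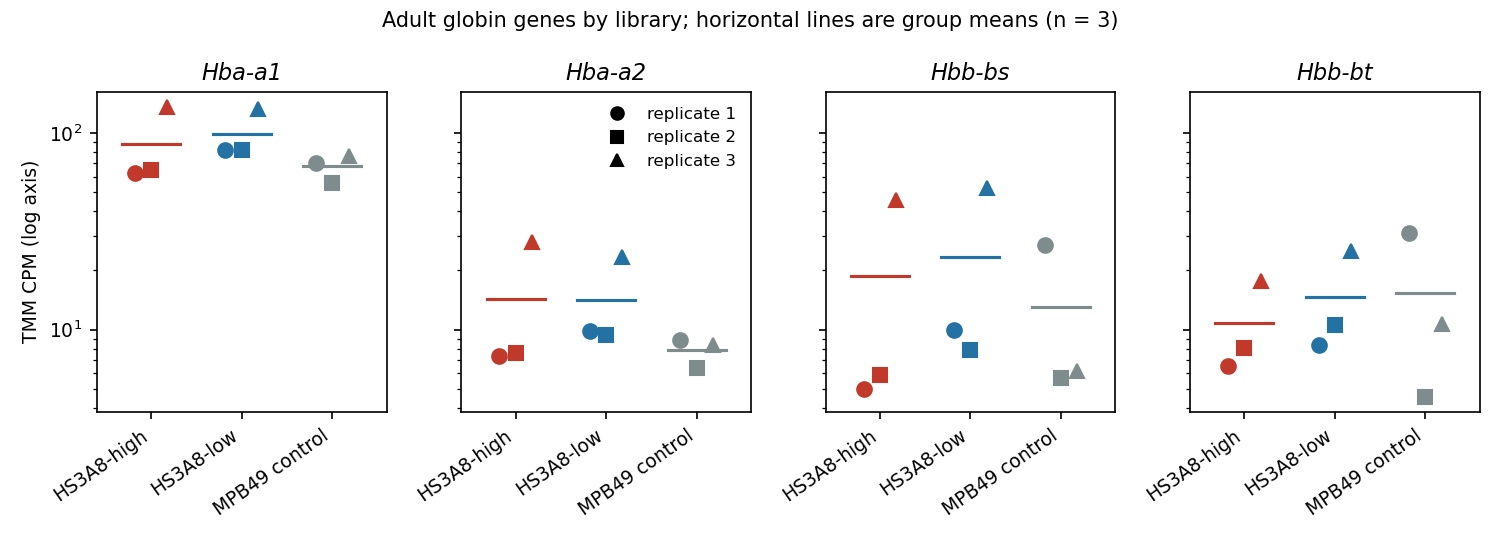
TMM CPM of the 4 adult globin genes on a log axis, by group on the x axis. Each point is 1 library, its shape gives the replicate number, and horizontal lines are means of 3 libraries. Replicate 3 of HS3A8-high and HS3A8-low is the highest library of its group for each gene, and control replicate 1 is the highest control library for Hbb-bs and Hbb-bt.

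The beta globins were among the more variable genes of the data set. The SD of log2 level within groups was 1.53 for Hbb-bs, larger than for 98.0% of 12108 genes, and 1.04 for Hbb-bt, larger than for 93.0%. It was 0.78 for Hba-a2 (86.7%) and 0.47 for Hba-a1 (67.0%), against a median of 0.33 over all genes.

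Between HS3A8-high and HS3A8-low, no adult globin passed the test. The 2-group means of Hba-a1 were 88.0 ± 42.5 CPM (SD, n = 3) in HS3A8-high and 101 ± 30.6 CPM in HS3A8-low, and its log2 fold change, high minus low, was -0.20 (SE 0.35, adjusted p = 0.799, edgeR's quasi-likelihood test with Benjamini-Hochberg adjustment over all genes tested). Hba-a2 had means of 14.4 ± 11.9 and 14.7 ± 8.25 CPM and a log2 fold change of -0.03 (SE 0.62, edgeR adjusted p = 0.987). The intervals of these differences were wide, from 0.488-fold to 1.55-fold for Hba-a1 and from 0.353-fold to 2.73-fold for Hba-a2 (95%).

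For Hbb-bs the means were 18.9 ± 23.3 CPM in HS3A8-high and 24.2 ± 25.9 CPM in HS3A8-low, and the log2 fold change was -0.34 (SE 1.05, edgeR adjusted p = 0.892). For Hbb-bt they were 10.8 ± 6.07 and 15.1 ± 9.41 CPM, and the log2 fold change was -0.48 (SE 0.54, edgeR adjusted p = 0.680). Both intervals included changes of more than 1.7-fold in either direction, from 0.140-fold to 4.42-fold for Hbb-bs and from 0.298-fold to 1.73-fold for Hbb-bt.

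With edgeR, 0 of the 4 genes were called, and 0 had an unadjusted p under 0.05. DESeq2 and limma-voom also called 0. Of all 11791 genes tested in this comparison, 3.82% were called, 0.611% as higher in HS3A8-high and 3.21% as higher in HS3A8-low. The median log2 fold change of the 4 adult globins was -0.27, against -0.03 over all genes. The groups overlapped for all 4 genes, whereas they did not for 27.8% of all genes.

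Libraries of HS3A8-high and HS3A8-low with the same replicate number deviated together from their group means, so both fractions were also compared within numbers. In log2 CPM, high minus low, Hbb-bt was -0.39, -0.43 and -0.54 in replicates 1 to 3, and Hbb-bs was -1.03, -0.46 and -0.24. Both beta genes were therefore lower in HS3A8-high in 3 of 3 pairs.

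The alpha genes were lower in HS3A8-high in 2 of 3 pairs. Hba-a1 was -0.42, -0.37 and 0.00396, and Hba-a2 was -0.46, -0.34 and 0.22. With the replicate number as a block, the log2 fold changes were -0.55 (SE 0.19, edgeR adjusted p = 0.121) for Hbb-bs, -0.46 (SE 0.17, edgeR adjusted p = 0.134) for Hbb-bt, -0.26 (SE 0.11, edgeR adjusted p = 0.169) for Hba-a1 and -0.18 (SE 0.20, edgeR adjusted p = 0.602) for Hba-a2. The block narrowed the errors of all 4 genes, and still 0 of 4 were called. Of the 4, 2 had an unadjusted p under 0.05, Hbb-bs (0.0291) and Hbb-bt (0.0346). Unadjusted p values of this size were common among all genes, as the adjusted values of 0.121 and 0.134 show. These 2 genes also share the uncertain split of reads. Among all genes 11.6% were called with the block, 3.32% as higher in HS3A8-high and 8.27% as higher in HS3A8-low.

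**Figure D2:**
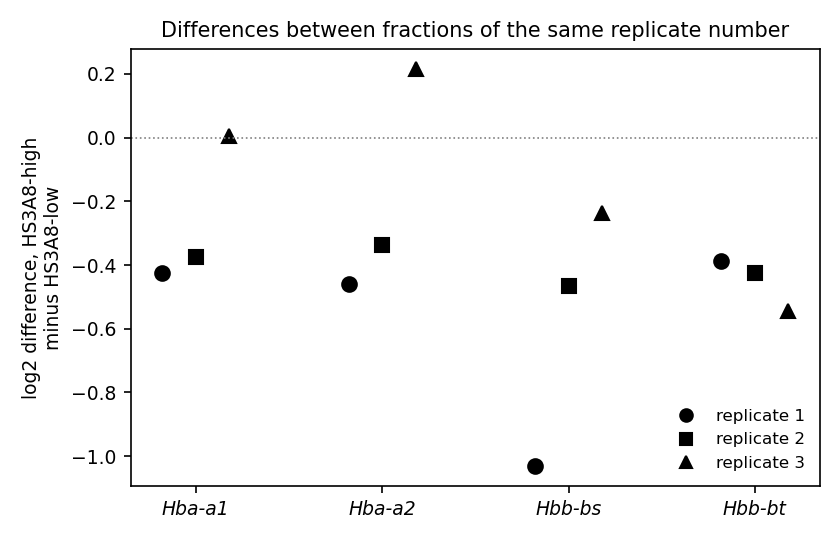
Difference in log2 CPM between the HS3A8-high and the HS3A8-low library of the same replicate number, for the 4 adult globins. Each point is 1 pair, and values below the dotted line at 0 are lower in HS3A8-high. All 3 pairs lie below 0 for Hbb-bs and Hbb-bt, and 2 of 3 for Hba-a1 and Hba-a2.

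Without HS3A8-low replicate 3 the log2 fold change of each adult gene turned positive, to 0.08 for Hba-a1, 0.54 for Hba-a2, 1.04 for Hbb-bs and 0.16 for Hbb-bt. Without HS3A8-high replicate 3 the values were -0.67, -0.95, -2.14 and -1.04 in the same order. With both of these libraries left out, a setting chosen after seeing the data, they were -0.38, -0.38, -0.74 and -0.39, with edgeR adjusted p from 0.164 to 0.535.

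Against the MPB49 control, HS3A8-high MEPs had log2 fold changes, high minus control, of 0.37 for Hba-a1 (SE 0.33, edgeR adjusted p = 0.733) and 0.86 for Hba-a2 (SE 0.55, edgeR adjusted p = 0.733). The beta genes had values of 0.54 for Hbb-bs (SE 0.999, edgeR adjusted p = 0.832) and -0.52 for Hbb-bt (SE 0.71, edgeR adjusted p = 0.778). No gene of the 4 was called by edgeR, DESeq2 or limma-voom, and 0 had an unadjusted p under 0.05 in edgeR. Among all genes 0.0174% were called in this comparison, so calls were rare throughout. The groups overlapped for all 4 genes, while they did not for 14% of all genes.

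HS3A8-low MEPs had higher means than the control for 3 of the 4 genes, and no difference passed the test. Log2 fold changes, low minus control, were 0.53 for Hba-a1 (SE 0.25, edgeR adjusted p = 0.840), 0.83 for Hba-a2 (SE 0.42, edgeR adjusted p = 0.840), 0.82 for Hbb-bs (SE 0.90, edgeR adjusted p = 0.865) and -0.10 for Hbb-bt (SE 0.73, edgeR adjusted p = 0.979). The unadjusted p was 0.0698 for Hba-a1 and 0.0836 for Hba-a2. With edgeR 0 of 4 genes were called and 0 had an unadjusted p under 0.05, and DESeq2 and limma-voom also called 0. EdgeR called 0% of all genes. The 2 alpha genes did not overlap between the groups, as 12.8% of all genes did not.

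The control libraries are shared by both of these comparisons. Without control replicate 1, Hbb-bt changed sign, to 0.50 in the comparison of HS3A8-high and 0.95 in that of HS3A8-low. Without replicate 3 of the sorted fraction, Hba-a1 was at -0.11, Hba-a2 at -0.09 and Hbb-bs at -1.27 in HS3A8-high against control, and Hba-a1 at 0.26, Hba-a2 at 0.28 and Hbb-bs at -0.55 in HS3A8-low against control.

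**Figure D3:**
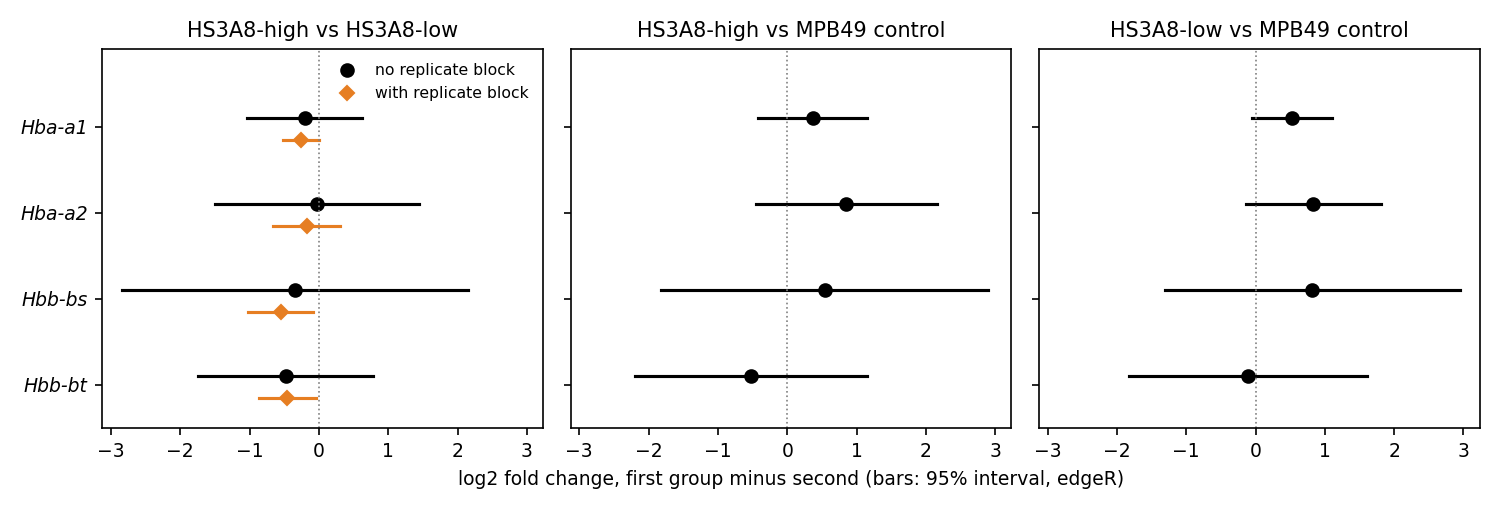
Log2 fold changes of the 4 adult globins in the 3 comparisons, first group minus second, with 95% intervals from edgeR. Black points are fits without the replicate number, and orange diamonds are the fit of HS3A8-high with HS3A8-low with the number as a block. No gene was called in any comparison, and the block narrowed the interval of each gene.

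Summed over the 4 genes, which avoids the split within pairs, adult globin levels were 81.2, 86.2 and 227 CPM in HS3A8-high, 109.8, 109.7 and 233 CPM in HS3A8-low and 137, 72.6 and 102 CPM in the control. Replicate 3 of each fraction held the highest sums, and the groups overlapped in every comparison. Mean log2 sums differed by -0.31 between HS3A8-high and HS3A8-low (two-sided exact permutation test, p = 0.5, n = 3 and 3), by 0.20 between HS3A8-high and the control (exact p = 0.8) and by 0.47 between HS3A8-low and the control (exact p = 0.4). The smallest p that 3 against 3 libraries allow is 0.1.

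The balance of alpha to beta transcripts differed more between libraries than between groups. Alpha genes made up 72.2% of adult globin counts in HS3A8-high replicate 3 (95% Clopper-Pearson interval 70.6% to 73.7%), 66.8% in HS3A8-low replicate 3 (65.0% to 68.5%) and 57.6% in control replicate 1 (55.1% to 60.1%). In the other 6 libraries the share lay between 83.1% and 85.9%. The intervals cover counting error only, with reads taken as independent molecules, and not the spread between libraries.

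As a ratio of counts, alpha over beta was 6.02, 5.17 and 2.59 in the HS3A8-high libraries, 4.97, 4.92 and 2.01 in the HS3A8-low libraries and 1.36, 6.08 and 5.04 in the control. The means were 4.60 ± 1.78, 3.97 ± 1.70 and 4.16 ± 2.48 (SD, n = 3). In log2, the difference was 0.24 between HS3A8-high and HS3A8-low (exact permutation p = 0.5), 0.32 between HS3A8-high and the control (exact p = 0.7) and 0.08 between HS3A8-low and the control (exact p = 1). None of these differences was larger than the spread within groups.

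Within replicate numbers, the log2 ratio, high minus low, was 0.27, 0.0718 and 0.37 in replicates 1 to 3, so it was higher in HS3A8-high in 3 of 3 pairs. The log2 adult sum, high minus low, was -0.47, -0.38 and -0.0741, so it was lower in 3 of 3 pairs. A two-sided exact test over sign flips of the pairs, chosen after the data were seen, gave p = 0.25 for each, the smallest that 3 pairs allow.

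Within the pairs, replicate 3 of both fractions also stood apart. Counts of Hba-a1 over Hba-a2 were 4.88 in HS3A8-high replicate 3 and 5.65 in HS3A8-low replicate 3, and between 7.94 and 9.13 in the other 7 libraries. Counts of Hbb-bs over Hbb-bt were 2.58 and 2.09 in those 2 libraries and between 0.579 and 1.25 in the other 7. Control replicate 1, which had the lowest alpha share, had a Hbb-bs over Hbb-bt ratio of 0.872, within the range of the others, and the lowest Hba-a1 over Hba-a2 ratio of these 7, at 7.94. That library held the most of 2 genes named after their values were seen. Prdx2, a peroxidase of red cells, was at 1995 CPM there and at 637 to 1031 CPM in the others, and Blvrb, a heme-breakdown reductase, at 1512 CPM there and at 563 to 865 CPM in the others. Sums over other erythroid lists described below were not highest there. The 12 genes of heme supply summed to 3556 CPM there, within the 2886 to 3607 CPM of the others. The 12 later erythroid genes summed to 1438 CPM there, the lowest sum, and to 1717 to 2272 CPM in the others. The 16 listed regulators of globin transcription were also lowest there, at 2617 CPM against 2893 to 3615 CPM.

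**Figure D4:**
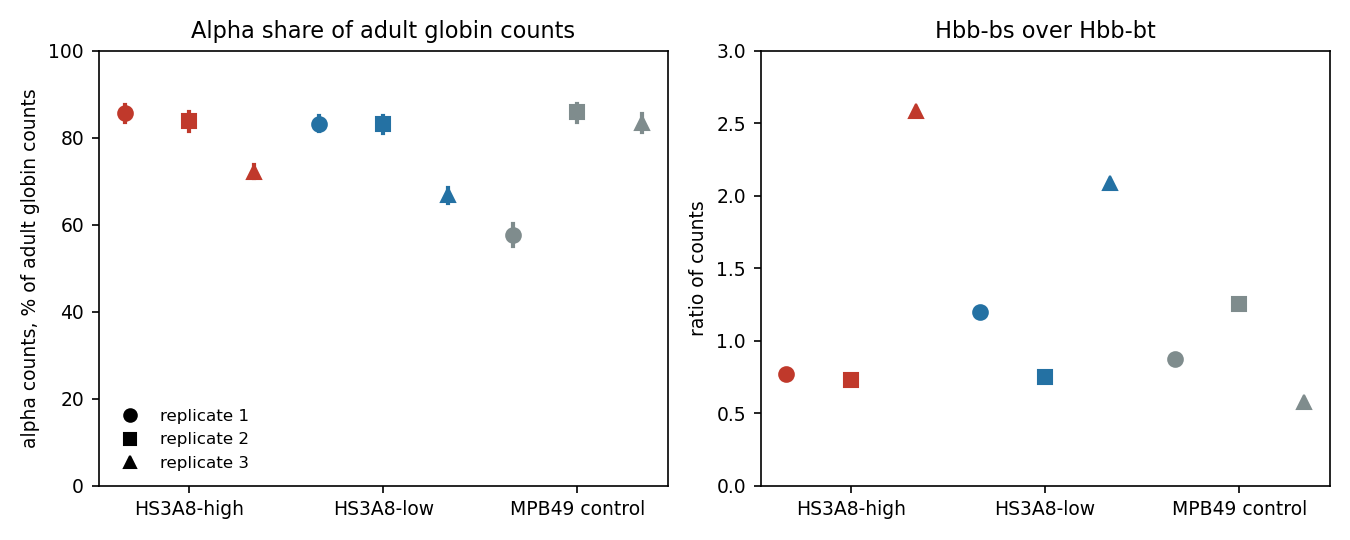
Left, the alpha share of adult globin counts in percent for each library, with 95% Clopper-Pearson intervals as vertical bars. Right, counts of Hbb-bs over Hbb-bt for each library, with the shape giving the replicate number in both panels. Alpha shares of 57.6% to 72.2% belong to replicate 3 of both fractions and to control replicate 1, and the ratios above 2 on the right belong to replicate 3 of both fractions.

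The same libraries differed in transcripts of other cell types. The 12 granulocyte and monocyte markers, such as Mpo, Elane and Lyz2, whose proteins fill the granules of these cells, summed to 1941 and 4934 CPM in replicate 3 of HS3A8-high and of HS3A8-low. In the other libraries they summed to 9.92 to 252.8 CPM, with 95.6 CPM in control replicate 1. None of the 12 was at 0 in replicate 3 of either fraction, and up to 3 were at 0 in the other libraries. By group the sums ranged from 9.92 to 1941 CPM in HS3A8-high, from 118 to 4934 CPM in HS3A8-low and from 95.6 to 191 CPM in the control.

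The sum of basophil and mast cell markers behaved alike, with 68.0 and 141 CPM in replicate 3 of HS3A8-high and HS3A8-low and 1.27 to 25.1 CPM elsewhere. Not every marker of the list followed this sum. Cpa3 was at 17.7 to 22.9 CPM in HS3A8-low, 6.18 to 8.02 CPM in the control and 0.318 to 4.43 CPM in HS3A8-high. Prss34, a basophil protease, was at 39.7 and 74.2 CPM in replicate 3 of HS3A8-high and HS3A8-low. It was at 8.74 CPM in control replicate 1, at 0.0641 CPM in control replicate 2 and at 0 in the other 5. The part of these markers in the globin values was not tested.

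Megakaryocyte, T and NK cell and B cell markers had sums that did not overlap between HS3A8-high and HS3A8-low. Sums of the heme supply and later erythroid lists described below did not overlap either, and were higher in HS3A8-high. They were 3510 to 3607 against 2886 to 3335 CPM for heme supply, and 1971 to 2272 against 1717 to 1751 CPM for later erythroid genes. Of the later erythroid genes, Ermap alone was at 921 to 1142 against 696 to 776 CPM. Taken singly, 27.8% of all genes did not overlap between these groups. The 12 megakaryocyte markers summed to 44.8 to 70.6 CPM in HS3A8-high, 257 to 504 CPM in HS3A8-low and 176 to 286 CPM in the control. The 7 markers of T and NK cells summed to 4.35 to 34.9 CPM, 148 to 167 CPM and 44.3 to 104 CPM in the same order. Within HS3A8-high the T and NK sum was highest in replicate 3. Within HS3A8-low the megakaryocyte sum and the T and NK sum were highest in replicate 1. The part of these cell types in the differences between fractions was not tested.

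Of 8348 other genes averaging 10 CPM or more, the 5 whose log2 level followed the summed adult globins most closely were Lyz2 (Pearson r 0.936 over 9 libraries), Csf1r (0.934), Ctsh (0.920), Prss34 (0.918) and Lgals3 (0.915). Lyz2 encodes lysozyme and Csf1r the receptor for macrophage colony-stimulating factor. Csf1r was at 33.7 and 67.3 CPM in replicate 3 of HS3A8-high and HS3A8-low and at most at 2.58 CPM in the other 7 libraries. These correlations rest on the same 2 libraries and describe them.

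**Figure D5:**
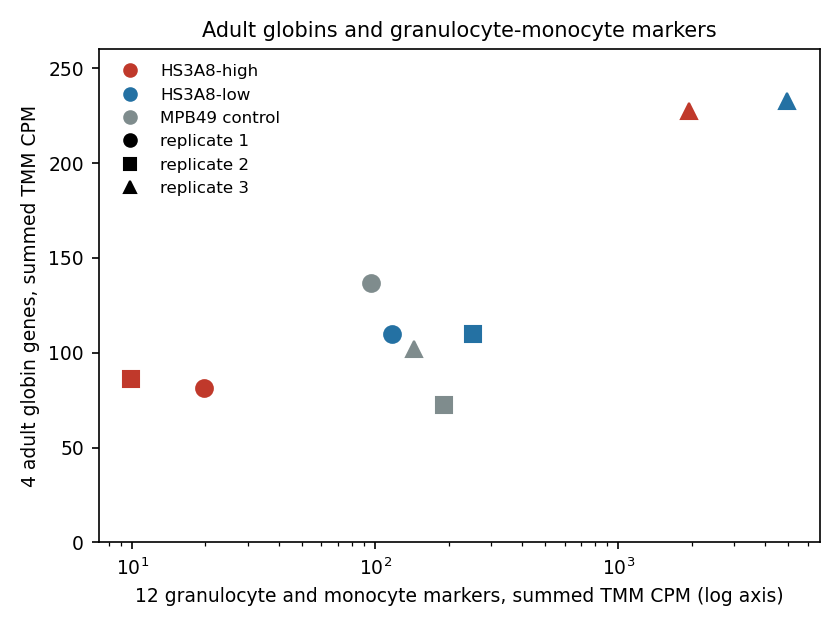
Summed TMM CPM of the 4 adult globin genes against that of 12 granulocyte and monocyte markers on a log axis, 1 point per library, with color for the group and shape for the replicate number. The 2 points at the upper right are replicate 3 of HS3A8-high and HS3A8-low, with 227 and 233 CPM of adult globins, and the other 7 libraries have 72.6 to 137 CPM.

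Of 16 listed regulators of globin transcription, all were tested and 1 passed between HS3A8-high and HS3A8-low, against 3.82% of all genes. This was Nfe2, a leucine zipper factor that binds globin enhancers. It fell by 0.70 on the log2 scale in HS3A8-high, from 284 ± 36.2 to 175 ± 5.87 CPM (SE 0.11, edgeR adjusted p = 0.0257). Its values lay between 171 and 181 CPM in HS3A8-high and between 248 and 315 CPM in HS3A8-low. Leaving out each of the 6 libraries in turn, the call was lost in 5 of 6 fits, with edgeR adjusted p from 0.0527 without HS3A8-high replicate 3 to 0.136 without HS3A8-low replicate 2, and held without HS3A8-low replicate 3 (edgeR adjusted p = 0.0244). Nfe2 was lower in HS3A8-high in each of these fits, by log2 fold changes of -0.57 to -0.76. Without the block 4 of the 16 had an unadjusted p under 0.05 in edgeR. DESeq2 and limma-voom called 2 each, against 1229 of 18016 and 1490 of 11791 among all genes. The median log2 fold change of the list was 0.18, against -0.03 over all genes.

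With the replicate block 4 of the 16 passed, against 11.6% of all genes. Nfe2 (edgeR adjusted p = 0.00759) and Gata2, a GATA factor of early progenitors, were lower in HS3A8-high, Gata2 by a log2 fold change of -1.07 (edgeR adjusted p = 0.0186). Klf1, which activates the adult beta globin promoter through its CACCC box, was higher by 0.33 (edgeR adjusted p = 0.0243), and Klf3, a related repressor, by 0.43 (edgeR adjusted p = 0.0335). Without the block the last 3 had edgeR adjusted p of 0.0553, 0.168 and 0.458.

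A list of 12 genes covered heme synthesis, mitochondrial transport and, with Tfrc, iron uptake by the cell. By edgeR 0 passed without the block and 2 with it, against 3.82% and 11.6% of all genes. Both were higher in HS3A8-high, as were 3.32% of all genes with the block. Cpox, which makes protoporphyrinogen, had a log2 fold change of 0.30 (edgeR adjusted p = 0.0335 with the block, 0.0569 without), with 637 ± 13.2 against 518 ± 19.7 CPM. Fech, the enzyme that inserts iron, had 0.29 (edgeR adjusted p = 0.0412 with the block, 0.0751 without). Without the block 3 of the 12 had an unadjusted p under 0.05 in edgeR. The share of all genes under that unadjusted threshold is not given for any list. DESeq2 called 2 and limma-voom called 3, against 1229 of 18016 and 1490 of 11791 among all genes. The list's median was 0.10.

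Alas2, the erythroid enzyme of the first step of heme synthesis, is given although it passed no test, and was chosen after its values were seen. It had 1.21, 1.76 and 9.26 CPM in HS3A8-high, 3.18, 3.46 and 7.43 CPM in HS3A8-low and 2.97, 1.22 and 1.40 CPM in the control. As for the globins, replicate 3 of both fractions was highest.

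Among 7 genes that sense heme or handle surplus alpha chains and their oxidants, 0 passed without the block and 1 with it, against 3.82% and 11.6% of all genes. With the block Hmox1, which degrades heme, was lower in HS3A8-high, by a log2 fold change of -1.69 (edgeR adjusted p = 0.0336) at 1.70 ± 1.54 against 5.48 ± 4.66 CPM. Without the block 0 of the 7 had an unadjusted p under 0.05 in edgeR, and DESeq2 and limma-voom called 0. The median of the 7 was -0.00269.

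Of 12 later erythroid genes, mostly of the red cell membrane, 0 passed without the block, and 2 passed with it, both higher in HS3A8-high, against the same 3.82% and 11.6% of all genes. Ermap, a surface protein of erythroid cells, had a log2 fold change of 0.41 (edgeR adjusted p = 0.0173 with the block, 0.0680 without), with 1022 ± 116 against 769 ± 42.8 CPM. Ank1, which ties the membrane to its skeleton, had 0.42 (edgeR adjusted p = 0.0487 with the block, 0.172 without). Without the block 2 of the 12 had an unadjusted p under 0.05 in edgeR. DESeq2 and limma-voom called 1 each, against 1229 of 18016 and 1490 of 11791 among all genes. The median of the list was -0.00497.

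In the comparisons with the MPB49 control, 0 genes of these 4 lists passed with edgeR, with or without the block, or with DESeq2 or limma-voom. The unadjusted p of edgeR without the block was under 0.05 for 1 regulator in HS3A8-high against control, and for 2 regulators and 1 gene of heme supply in HS3A8-low against control. List medians, high minus control, were 0.22 for the regulators, -0.01 for heme supply, -0.05 for the heme and alpha chain genes and 0.12 for the later erythroid genes, with -0.00301 over all genes. Low minus control they were 0.05, -0.15, 0.16 and 0.11, with -0.00278 over all genes. Of 7 further globin family genes none passed the count filter. Hbq1b, a theta-type globin of the alpha cluster, had 0 to 10 counts in a library.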

How the data were processed

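The authors mapped reads to mm10 and deposited raw read counts per gene for the 9 libraries, without normalization; their processing notes name STAR 2.5 and HTSeq 0.6.1, and strand use and annotation release are not given in the sources used here. All 9 columns were matched to samples by title. Of 35275 identifiers 34490 matched a symbol, and 16617 had no count in any library.

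Members and gene lists were chosen with earlier results of these data known. All 8 members are named, as are list genes that passed between HS3A8-high and HS3A8-low with or without the block, and the 5 genes most like the summed adult globins.

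Counts were tested on the whole table in R 4.3.3 with edgeR 4.0.16 (quasi-likelihood test, TMM, filterByExpr, Benjamini-Hochberg, adjusted p below 0.05), each fit holding the 6 libraries of its comparison. Sums and ratios of counts were compared by two-sided exact permutation tests, and by exact sign flips within replicate numbers. Correlations used log2 CPM with a prior count of 2. Alternatives were DESeq2 1.42.0, limma-voom (limma 3.58.1), other normalizations and filters, globins left out of the totals, copies summed, all libraries in 1 fit, a replicate block and each library left out. The scripts were tested on simulated counts.

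Replicate numbers were checked for pairing by correlating deviations from group means over 11791 genes. Between HS3A8-high and HS3A8-low, equal numbers had r from 0.345 to 0.517, and unequal numbers -0.482 to 0.114, so the numbers were taken to pair them. Deviations from a group mean cancel out within the group. Low values for unequal numbers thus partly follow from high values for equal numbers and are no separate support. The pairing comes from the data, as no label states it, and the block fits use the same counts. Against the control, same-number values were -0.248 to -0.0645 for HS3A8-high and -0.362 to 0.0187 for HS3A8-low, and the numbers were not taken to pair the samples.

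Library totals of 11781637 to 15850037 counts set the precision. Coordinates and transcripts are from GENCODE on GRCm38, the build named mm10, and sequences were compared with Python 3.11.15 and Biopython 1.88.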

Additional observations from a re-analysis of the deposited data

How the results depend on the processing

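In each of the 3 comparisons 0 members were called under each of 16 alternatives. Against the control this says little, as few genes were called at all. The main edgeR fits called 2 of 11486 genes for HS3A8-high and 0 of 11878 for HS3A8-low. The direction of the log2 fold changes of the 4 adult globins was kept in 160 of 186 refits. Depth limits the embryonic genes, which had at most 4 counts in a library; for the adult genes the spread between libraries was the limit. The cause of the changes of sign was not tested, beyond the libraries named.

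Leaving out each library in turn gave, for HS3A8-high minus HS3A8-low, ranges of -0.67 to 0.0759 for Hba-a1, -0.95 to 0.54 for Hba-a2, -2.14 to 1.04 for Hbb-bs, -1.04 to 0.16 for Hbb-bt, -0.20 to 0.61 for the log2 alpha to beta ratio and -0.79 to 0.0610 for the log2 adult sum, with the ends set by leaving out replicate 3 of either fraction. For HS3A8-high minus control they were -0.11 to 0.57, -0.0879 to 1.18, -1.27 to 1.67, -1.09 to 0.50, -0.36 to 0.72 and -0.28 to 0.48 in the same order. For HS3A8-low minus control they were 0.26 to 0.65, 0.28 to 1.06, -0.55 to 1.98, -0.72 to 0.95, -0.60 to 0.51 and 0.12 to 0.72.

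Other changes of sign were few. With voom and quality weights, Hba-a2 was 0.18 and Hbb-bs 0.23 in HS3A8-high against HS3A8-low, and Hbb-bt was 0.31 and 0.49 for HS3A8-high and HS3A8-low against control. Hba-a2, high minus low, was 0.000950 without a count filter and 0.00317 with all 9 libraries in 1 fit. Without replicate 3 of the sorted fraction and replicate 1 of the control, a setting chosen after seeing the data, high minus control was -0.0674 for Hba-a1, -0.13 for Hbb-bs and -0.0444 for the adult sum, and low minus control was 0.32 for Hbb-bt and -0.16 for the ratio.

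The replicate block changed no call of a member, with 0 of 4 in each comparison. Among all genes it moved the calls between HS3A8-high and HS3A8-low from 451 to 1367. DESeq2 gave 1229 and voom 1490, and leaving out replicate 3 of both fractions gave 748. Leaving out 1 library gave, in edgeR, 0 without HS3A8-low replicate 2, 42 and 53 without HS3A8-high replicates 1 and 2, 56 and 244 without HS3A8-low replicates 1 and 3, and 439 without HS3A8-high replicate 3. The replicate block left the log2 ratio at 0.24 and the log2 adult sum at -0.31, each with an exact permutation p of 0.25. Against control, where the numbers did not pair the libraries, the block turned Hbb-bt, low minus control, to 0.24, and calls among all genes went from 2 to 0 for HS3A8-high and stayed at 0 for HS3A8-low. There DESeq2 gave 141 and 93, voom 100 and 287, and leaving out sorted replicate 3 and control replicate 1 gave 175 and 26. For HS3A8-high against control, no count filter gave 9 and all libraries in 1 fit gave 32.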

Other observations

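The neighbours of the clusters were read as a description, with no test. Within 100000 bases of the beta cluster, 12 protein-coding genes other than globins are annotated, all of them odorant receptors, and each had 0 counts in all 9 libraries. Within the same distance of the alpha cluster there are 6 such genes, each with a count in at least 1 library. Nprl3, a regulator of amino acid signalling whose introns hold the enhancers of the alpha globins, lies 8693 bases before the cluster and was at 39.4 ± 1.76 CPM in HS3A8-high, 36.4 ± 3.18 CPM in HS3A8-low and 37.8 ± 2.91 CPM in the control (SD, n = 3). Its lowest and highest libraries were at 33.2 and 41.2 CPM, a much narrower range than that of any adult globin. Snrnp25, a splicing factor gene 67416 bases before the cluster, ranged from 33.6 to 153 CPM. Mpg, a DNA repair enzyme, was at 2.89 to 9.01 CPM and Sh3pxd2b at 0.810 to 2.78 CPM, while Rhbdf1 and Il9r had means near or below 1 CPM in each group.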
